A study of Mus musculus with 203 samples.

Results

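The genes described here are the ligands and receptors of vascular endothelial growth factor (VEGF) signalling, chosen by gene symbol: the ligands Vegfa, Vegfb, Vegfc and Pgf, the receptor tyrosine kinases Flt1, Kdr and Flt4, and the co-receptors Nrp1 and Nrp2. All 9 had a row among the 25094 genes listed for RAW cells, and 7 of them passed the filter on low values that left 12905 genes to be tested. RAW264.7 (RAW) cells are a mouse macrophage line, labelled as BALB/c. The study asked how the corepressor subunit GPS2 and the histone demethylase KDM1A act on the response of macrophages to interleukin 4 (IL4), and of its 203 samples the 16 RAW RNA-seq libraries are used here. They form 4 groups of 4: shGFP cells (the control hairpin) and shKDM1A cells (a hairpin against Kdm1a), each without IL4 and with IL4 at 20 ng/ml for 6 h. Both lines were made by lentiviral transduction and puromycin selection, so each hairpin is 1 stable line. An effect of less Kdm1a and any other difference between the lines therefore cannot be told apart. What is called the knockdown below is the comparison of shKDM1A with shGFP cells. The study's methods speak of biological replicates for its experiments in general, while the labels do not say whether libraries of a group came from separate cultures. The p-values below measure the spread between these libraries, which may in part be technical. A further 16 RNA-seq libraries came from bone marrow-derived macrophages (BMDMs) of wild-type (WT) mice and mice with a Gps2 knockout (KO), without and with IL4. The table for BMDMs also lists all 9 genes, among 16478, but its values are comparisons made by the authors, which are not used, so no BMDM level is given here.

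VEGF ligands are secreted dimers that act mainly on endothelial cells, where binding to a receptor tyrosine kinase drives the growth of blood or lymphatic vessels. VEGFA binds FLT1 and KDR, VEGFB and placental growth factor (the product of Pgf) bind FLT1, and VEGFC binds FLT4 and KDR, while neuropilins are co-receptors shared with the class 3 semaphorins. Monocytes and macrophages carry FLT1, and macrophages are known as a source of VEGFA and VEGFC. FLT1 is also made in a shorter soluble form that binds ligand and lacks the kinase.

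The deposited values are log2 values per library. They appear moderated for weakly detected genes, since such genes sit on nearly flat lines, so a fold change of a weak gene may be understated. The libraries held 17554721 to 27782568 tags, and the median over tested genes lay between 9.23 and 9.25 in every library. Kdm1a, the knockdown target, lay between 10.23 and 10.36 in the 8 shKDM1A libraries and between 11.07 and 11.23 in the 8 shGFP libraries. All 10 macrophage markers looked at passed the filter (Csf1r, Cd68 and Itgam among them), and the log2 of their summed level ran from 17.73 to 17.77 in shGFP cells, 17.38 to 17.40 in shGFP cells with IL4, 17.90 to 17.93 in shKDM1A cells and 17.78 to 17.87 in shKDM1A cells with IL4. This sum is mostly Lyz2 (lysozyme), at a mean of 16.87, which changed by -0.53 on IL4 in shGFP cells. The largest changes of the list in that comparison were those of Adgre1 (the gene of F4/80) at 1.24, Cd14 at -0.93 and Mpeg1 at -0.71. Of the 10 markers, 3 were higher and 4 lower on IL4 in shGFP cells (median -0.06) and 4 and 4 in shKDM1A cells (median 0.02), beside 26.9% and 27.1% of all tested genes called in either direction by limma at an adjusted p under 0.05. On knockdown 5 were higher and 5 lower without IL4 (median 0.01) and 6 and 3 with IL4 (median 0.18), beside 38.2% and 40.7% of all tested genes. Of 12 endothelial markers 3 passed the filter, and 4 (Emcn, Robo4, Sox17 and Erg) were listed at 0 in every library. Cdh5, the endothelial cadherin, did not exceed 0.76 in any library. Vwf, the gene of von Willebrand factor, was higher in shKDM1A than in shGFP cells by 0.30 without IL4 (standard error 0.05, limma adjusted p = 7.07e-05) and by 0.22 with IL4 (limma adjusted p = 0.00122). The other tested markers were not called, with Pecam1 at 0.01 and 0.00 and Egfl7 at -0.06 and 0.01 in the same comparisons, and the summed endothelial level had a log2 between 6.41 and 6.64 over all libraries. Of 8 fibroblast markers only Pdgfrb passed, at a mean of 2.46, and 5 (Col1a2, Col3a1, Dcn, Lum and Fn1) were listed at 0 in every library. The part of these differences in the results below was not tested. In such bulk libraries, fewer cells of a type and less RNA per cell cannot be told apart.

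Flt1 (NM_010228) lies on the minus strand of chromosome 5 in the mm9 genome (chr5:148373180-148537587), and the row used for RAW cells is the full-length transcript with an exonic length of 6863 bases. In the BMDM table the gene is listed by another transcript, NM_001363135 (chr5:148446736-148537587, 6299 bases), while the other 8 genes are listed by the same transcript in both tables. Of the 30 exons of the transcript Flt1-001 in the GENCODE annotation of mm9, 13 lie wholly within the span of that shorter row and 17 lie beyond it. The Flt1 values below therefore sum exons that a full-length and a shorter transcript share with exons only the full-length transcript has.

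To show the regions from which the genes with the largest changes start, the 300 bases around the listed start of Flt1, Vegfc and Nrp1 are given (250 before the start and 50 after it, mm9, 5′ to 3′ on the strand of the gene). Capitals mark GC boxes (GGGCGG on either strand) and the PU.1 core (GAGGAA on either strand). The regions are chr5:148537538-148537837 (minus strand) for Flt1, chr8:55162636-55162935 (plus strand) for Vegfc and chr8:130882723-130883022 (plus strand) for Nrp1. In Nrp1 a GC box and a PU.1 core adjoin without sharing a base and appear as a single run of capitals.
Flt1: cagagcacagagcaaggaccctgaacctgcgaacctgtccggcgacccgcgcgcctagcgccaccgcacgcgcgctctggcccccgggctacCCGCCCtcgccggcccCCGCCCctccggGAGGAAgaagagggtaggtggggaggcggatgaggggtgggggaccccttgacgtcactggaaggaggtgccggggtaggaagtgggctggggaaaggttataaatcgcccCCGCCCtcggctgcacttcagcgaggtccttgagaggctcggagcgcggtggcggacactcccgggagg
Vegfc: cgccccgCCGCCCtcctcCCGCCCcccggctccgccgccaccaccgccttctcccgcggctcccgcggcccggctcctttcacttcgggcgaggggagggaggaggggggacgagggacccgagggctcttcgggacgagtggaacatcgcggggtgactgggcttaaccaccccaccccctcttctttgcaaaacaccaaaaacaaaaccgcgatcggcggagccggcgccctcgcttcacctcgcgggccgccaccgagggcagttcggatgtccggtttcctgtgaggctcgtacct
Nrp1: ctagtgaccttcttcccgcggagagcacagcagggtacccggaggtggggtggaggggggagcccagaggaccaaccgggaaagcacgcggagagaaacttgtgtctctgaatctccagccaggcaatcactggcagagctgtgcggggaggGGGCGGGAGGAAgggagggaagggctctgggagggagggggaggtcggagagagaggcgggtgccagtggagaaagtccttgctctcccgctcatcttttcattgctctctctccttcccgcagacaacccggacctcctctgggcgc

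For all 9 genes the mm9 region was identical to a RefSeq promoter window of the later assembly GRCm38.p6, and the share of all 32851 RefSeq windows of the same length that hold each motif was used as a background. A GC box was present in 9 of the 9 windows at the listed starts and in 35.7% of all windows. The PU.1 core was present in 3 (Flt1, Vegfa and Nrp1) and in 28.3% of all windows. In Flt1 it began at position -130 from the start, in Nrp1 at position -92, and in Vegfa, on the opposite strand, at position -35. None of the 9 windows at the listed starts held TTC and GAA with any 4 bases between them, the STAT6 motif (6.95% of all windows), the same pair with any 3 bases between them (8.30%), the AP-1 motif TGAGTCA with its reverse complement TGACTCA (5.20%), or the hypoxia core ACGTG on either strand (19.6%). RefSeq lists another start for Vegfa and for Pgf, away from the row's own. The second Vegfa window held 1 hypoxia core and 1 GC box, and the second Pgf window held none of the motifs. A match is a run of letters and not a binding site, and the absence of these letters applies to these windows alone.

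Levels of the genes can be compared with each other only per length, as the log2 value minus the log2 of the transcript length in kb. On this scale, averaged over the 16 libraries, Nrp2 stood highest at 10.78, above 92.1% of tested genes, and Vegfb followed at 9.64, above 82.4%. Flt1 at 6.66, Nrp1 at 6.39, Vegfa at 6.05 and Vegfc at 5.82 came next, above 36.2%, 33.4%, 29.8% and 27.7% of tested genes. Neighbours among these 4 had overlapping libraries, so their order over all libraries is not firm, while Nrp2, Vegfb and this group of 4 did not overlap each other. Kdr at -1.09 was above 0.372% of tested genes, and Pgf at -1.35 and Flt4 at -2.50 stood below it.

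The order within the middle group changed with the condition. In shGFP cells with IL4, Flt1 had a mean per-length level of 7.30 and Vegfc of 5.32. In shKDM1A cells with IL4 they stood at 6.76 and 6.75, and the ranges of their 4 libraries overlapped. Nrp1 stood above Flt1 in shKDM1A cells without IL4, at 6.79 against 6.01, with no overlap between their libraries.

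**Figure D1:**
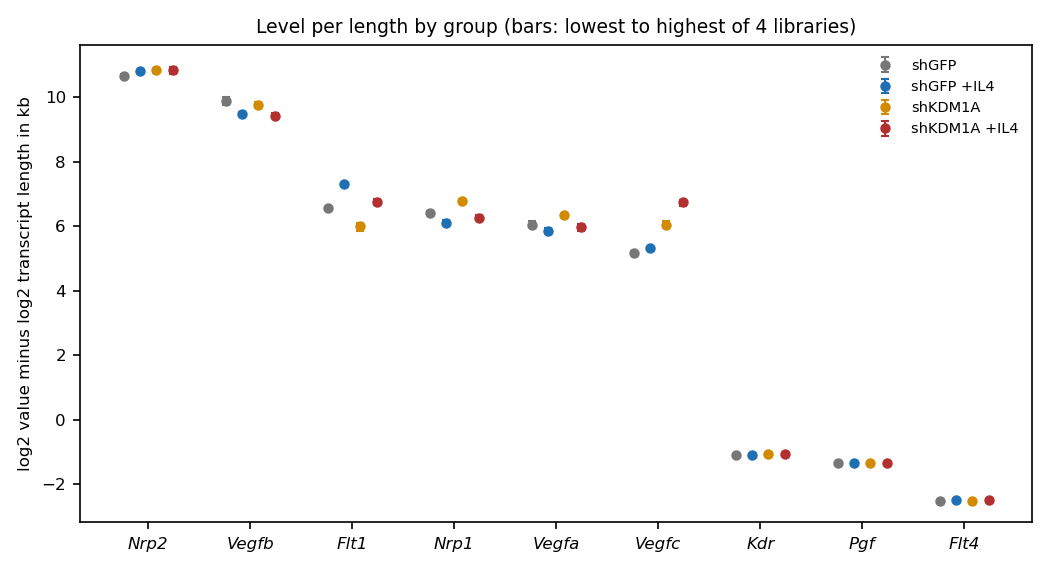
Level per length (log2 value minus log2 of transcript length in kb) of the 9 genes in order of their mean, with a point for the mean of each group of 4 libraries and bars from the lowest to the highest library. Nrp2 and Vegfb stand above the group of Flt1, Nrp1, Vegfa and Vegfc, and Kdr, Pgf and Flt4 lie below 0.

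The first comparison asked what IL4 did to these genes in shGFP cells. IL4 raised Flt1 and, by smaller steps, Nrp2 and Vegfc, and lowered Vegfb, Nrp1 and Vegfa. Thus 6 of the 7 genes tested changed, 3 up and 3 down, while 26.9% of all 12905 tested genes were called (13.1% higher and 13.7% lower). In shKDM1A cells IL4 changed 5 of the 7, raising Flt1 and Vegfc and lowering Nrp1, Vegfa and Vegfb, beside 27.1% of all genes (13.6% higher and 13.5% lower). The second comparison asked what the knockdown did. Without IL4, 5 of the 7 differed between shKDM1A and shGFP cells, with Vegfc, Nrp1, Vegfa and Nrp2 higher and Flt1 lower, beside 38.2% of all genes (19.7% higher and 18.4% lower). With IL4, 4 of the 7 differed, with Vegfc, Nrp1 and Kdr higher and Flt1 lower, beside 40.7% of all genes (20.9% higher and 19.8% lower). The third comparison asked whether the IL4 response itself differed between the lines, and it did for Vegfc and Nrp1, 2 of the 7, beside 6.13% of all genes (3.56% with a higher response in shKDM1A cells and 2.57% with a lower one). All of these are limma calls at an adjusted p under 0.05 over the tested genes. The IL4 comparisons and the knockdown comparisons share libraries and are not independent of each other.

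**Figure D2:**
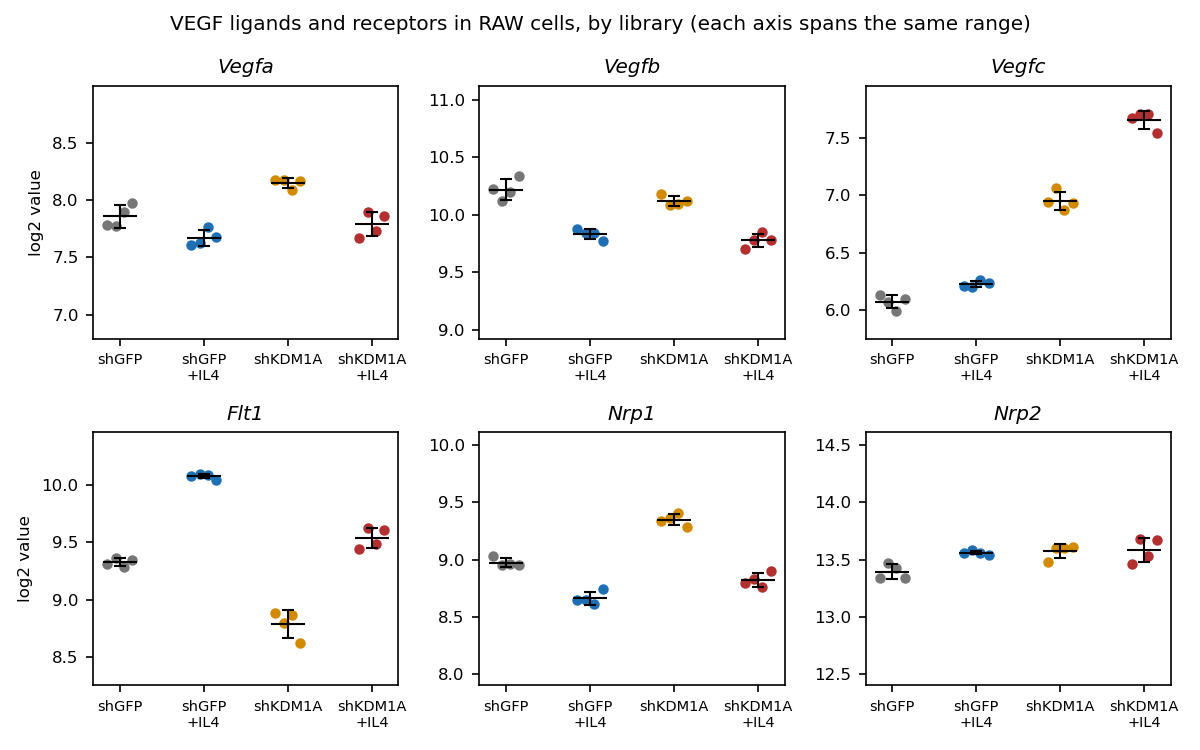
Log2 values of the 6 well-detected genes in each of the 16 libraries, as points, with the mean and SD of each group of 4 in black. Each panel spans the same range, and Vegfc in shKDM1A cells with IL4 (7.54 to 7.71) and Flt1 in shGFP cells with IL4 (10.05 to 10.09) stand above all other libraries of their gene.

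Among the tested ligands, Vegfc showed the largest changes in the knockdown comparisons and on IL4 in shKDM1A cells. On IL4 in shGFP cells Vegfc had the smallest change in size. Its product acts through FLT4 and KDR and is best known for the growth of lymphatic vessels. In shGFP cells Vegfc (NM_009506, chr8:55162886-55271808, plus strand) was measured at 6.13, 6.07, 6.00 and 6.10 in libraries 1 to 4, and with IL4 at 6.21, 6.20, 6.26 and 6.24. In shKDM1A cells it was at 6.94, 7.06, 6.87 and 6.93, and with IL4 at 7.67, 7.71, 7.71 and 7.54. No libraries of any 2 groups overlapped: the levels rose from shGFP cells to shGFP cells with IL4, to shKDM1A cells, to shKDM1A cells with IL4. The effect of IL4 was small in shGFP cells, with a log2 fold change of 0.15 (standard error 0.04, 1.11-fold, limma adjusted p = 0.0127), and larger in shKDM1A cells, at 0.71 (standard error 0.04, 1.63-fold, limma adjusted p = 2.06e-09). The difference between these responses was 0.55 (95% interval 0.43 to 0.68, limma adjusted p = 5.43e-05). Vegfc had the third highest positive difference among all 12905 genes, and 4 genes exceeded 0.5 in this direction, namely Pdcd1, Id3, Vegfc and Scd1, names that were read off after their values were seen. The knockdown raised Vegfc by 0.88 without IL4 (1.84-fold, limma adjusted p = 7.66e-11) and by 1.43 with IL4 (2.69-fold, limma adjusted p = 2.21e-13), which was the 20th largest absolute change of all tested genes.

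Vegfa, the main driver of blood vessel growth, fell on IL4 in both lines and was higher in shKDM1A cells without IL4. In shGFP cells Vegfa (NM_001025250, chr17:46153943-46169326, minus strand) was at 7.78, 7.78, 7.90 and 7.98 without IL4 and at 7.61, 7.63, 7.77 and 7.68 with IL4. In shKDM1A cells it was at 8.18, 8.17, 8.09 and 8.16 without IL4 and at 7.67, 7.90, 7.73 and 7.86 with IL4. The libraries without IL4 lay above those with IL4 in both lines, while the libraries of both lines with IL4 overlapped. IL4 lowered Vegfa by a log2 fold change of -0.19 in shGFP cells (standard error 0.05, a change of -12.1%, limma adjusted p = 0.0157) and of -0.36 in shKDM1A cells (-22.2%, limma adjusted p = 7.41e-05). The call in shGFP cells was lost when IL4 library 1 (-0.17, limma adjusted p = 0.050) or control library 4 (-0.15, limma adjusted p = 0.058) was left out. The responses differed by -0.18 (95% interval -0.34 to -0.02), which did not pass the adjustment over all genes (limma adjusted p = 0.174). The knockdown raised Vegfa by 0.29 without IL4 (1.23-fold, limma adjusted p = 3.31e-04), and with IL4 the difference was 0.12 (95% interval 0.00 to 0.23, limma adjusted p = 0.0911). Without shGFP IL4 library 3 or shKDM1A IL4 library 1 this last difference was called, at 0.15 and 0.16 (limma adjusted p = 0.047 and 0.029).

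Vegfb, a ligand of FLT1 that has little effect on vessel growth, fell on IL4 in both lines. In shGFP cells Vegfb (NM_011697, chr19:7056962-7062141, minus strand) was at 10.22, 10.12, 10.20 and 10.34 without IL4 and at 9.87, 9.84, 9.84 and 9.77 with IL4. In shKDM1A cells it was at 10.18, 10.08, 10.09 and 10.12 without IL4 and at 9.71, 9.78, 9.85 and 9.78 with IL4. All libraries with IL4 lay below all libraries without it, and the lines overlapped in either condition. IL4 lowered Vegfb by -0.39 in shGFP cells (standard error 0.04, a change of -23.5%, limma adjusted p = 2.17e-06) and by -0.34 in shKDM1A cells (-21.0%, limma adjusted p = 9.86e-06), responses that differed by 0.05 (95% interval -0.08 to 0.17, limma adjusted p = 0.700). The knockdown difference was -0.10 without IL4 (95% interval -0.19 to -0.01, limma adjusted p = 0.0663) and -0.05 with IL4 (limma adjusted p = 0.316). The first of these was called without shGFP control library 2 (-0.13, limma adjusted p = 0.015) or without shKDM1A control library 1 (-0.12, limma adjusted p = 0.040), and was -0.06 without shGFP control library 4 (limma adjusted p = 0.228). Pgf, the gene of placental growth factor, lay between -0.68 and -0.66 in all 16 libraries and did not pass the filter.

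The balance of the ligand transcripts was described by taking each per-length level out of the log scale and giving it as a share of the sum of Vegfa, Vegfb and Vegfc. Vegfb held most of this sum in each group, from 90.2% ± 0.255 (SD, n = 4) in shGFP cells to 80.1% ± 0.676 in shKDM1A cells with IL4. The share of Vegfc was 3.48% ± 0.213 in shGFP cells, 4.92% ± 0.171 with IL4, 6.50% ± 0.420 in shKDM1A cells and 12.6% ± 0.682 in shKDM1A cells with IL4. Vegfa held 6.35% ± 0.257, 7.12% ± 0.404, 7.92% ± 0.197 and 7.31% ± 0.509 in the same order. Vegfc was thus below Vegfa in all libraries of 3 groups and above it in all libraries of shKDM1A cells with IL4. These shares come from values that appear moderated and were not tested.

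**Figure D3:**
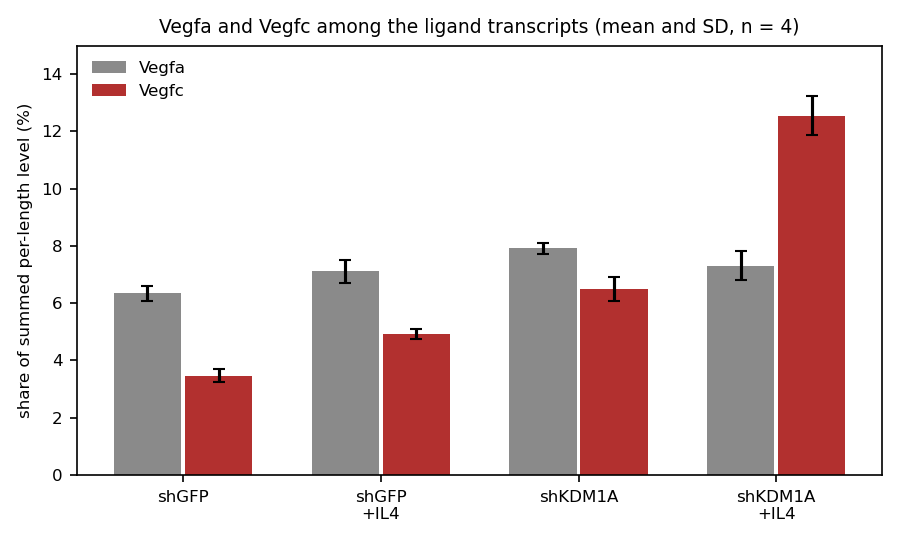
Share of Vegfa and of Vegfc in the summed per-length level of Vegfa, Vegfb and Vegfc (percent, bars are means of 4 libraries and lines are SD). Vegfc rises from 3.48% in shGFP cells to 12.6% in shKDM1A cells with IL4, where it passes Vegfa at 7.31%.

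Among the receptor tyrosine kinases, Flt1 was the only gene with a level well above the filter. Flt1 encodes the VEGF receptor that binds VEGFA, VEGFB and placental growth factor. In shGFP cells it was at 9.32, 9.37, 9.29 and 9.34 in libraries 1 to 4, and with IL4 at 10.08, 10.09, 10.09 and 10.05. In shKDM1A cells it was at 8.88, 8.79, 8.86 and 8.62, and with IL4 at 9.45, 9.62, 9.48 and 9.61. The 4 groups did not overlap, and shKDM1A cells with IL4 stood above shGFP cells without it but below shGFP cells with it. The log2 fold change on IL4 was 0.75 in each line (standard error 0.05, 1.68-fold), which placed Flt1 63rd among the tested genes by absolute change in shGFP cells and 52nd in shKDM1A cells. The 95% interval of the difference between the responses ran from -0.15 to 0.15, so a difference within that range is not excluded by these libraries. The knockdown lowered Flt1 by a log2 fold change of -0.54 in either condition (a change of -31.1%, limma adjusted p = 2.35e-07 without and 2.38e-07 with IL4). Vegfc and Flt1 thus moved in opposite directions in the knockdown comparisons and in the same direction on IL4.

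Kdr, the main signalling receptor on endothelial cells, lay between 1.45 and 1.52 in all 16 libraries and so only just passed the filter at 1. It was higher in shKDM1A cells with IL4 than in shGFP cells with IL4 by 0.05 (standard error 0.02, 1.04-fold, limma adjusted p = 0.0214). This call was lost in a fit of the compared groups alone (limma adjusted p = 0.053) and without shKDM1A IL4 library 1 or 2 (limma adjusted p = 0.051 in each case). No other comparison of Kdr was called, with differences from 0.00 to 0.03. Flt4, the receptor of VEGFC on lymphatic endothelium, lay between 0.03 and 0.06 and was not tested. Neither receptor of VEGFC thus exceeded 1.52 on the log2 scale in any library.

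Of the co-receptors, Nrp1 fell on IL4 and rose with the knockdown. In shGFP cells Nrp1 (NM_008737, chr8:130882973-131029375, plus strand) was at 9.03, 8.95, 8.96 and 8.95 without IL4 and at 8.65, 8.65, 8.61 and 8.74 with IL4. In shKDM1A cells it was at 9.34, 9.36, 9.40 and 9.29 without IL4 and at 8.80, 8.83, 8.76 and 8.90 with IL4. The 4 groups did not overlap, with shKDM1A cells highest and shGFP cells with IL4 lowest. IL4 lowered Nrp1 by -0.31 in shGFP cells (standard error 0.03, a change of -19.4%, limma adjusted p = 4.01e-06) and by -0.53 in shKDM1A cells (-30.6%, limma adjusted p = 7.79e-09). The responses differed by -0.22 (95% interval -0.32 to -0.11, limma adjusted p = 0.0184). The knockdown raised Nrp1 by 0.37 without IL4 (1.30-fold, limma adjusted p = 2.70e-07) and by 0.16 with IL4 (1.12-fold, limma adjusted p = 0.00167).

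Nrp2, the neuropilin that also pairs with VEGFC and FLT4, was the most abundant of the genes and changed little. In shGFP cells Nrp2 (NM_001077403, chr1:62749891-62865266, plus strand) was at 13.34, 13.47, 13.43 and 13.34 without IL4 and at 13.56, 13.58, 13.56 and 13.54 with IL4. In shKDM1A cells it was at 13.48, 13.60, 13.60 and 13.61 without IL4 and at 13.46, 13.68, 13.53 and 13.67 with IL4. The shGFP libraries without IL4 lay below those of each of the other 3 groups except that shKDM1A IL4 library 1 stood just under shGFP library 2. IL4 raised Nrp2 by 0.16 in shGFP cells (standard error 0.05, 1.12-fold, limma adjusted p = 0.0122), and in shKDM1A cells the difference was 0.01 (95% interval -0.08 to 0.11, limma adjusted p = 0.900). The responses differed by -0.15 (95% interval -0.29 to -0.02), which did not pass (limma adjusted p = 0.164), so a difference in the Nrp2 response is not shown. The knockdown raised Nrp2 by 0.18 without IL4 (1.13-fold, limma adjusted p = 0.00516), and the difference with IL4 was 0.02 (95% interval -0.07 to 0.12, limma adjusted p = 0.713).

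**Figure D4:**
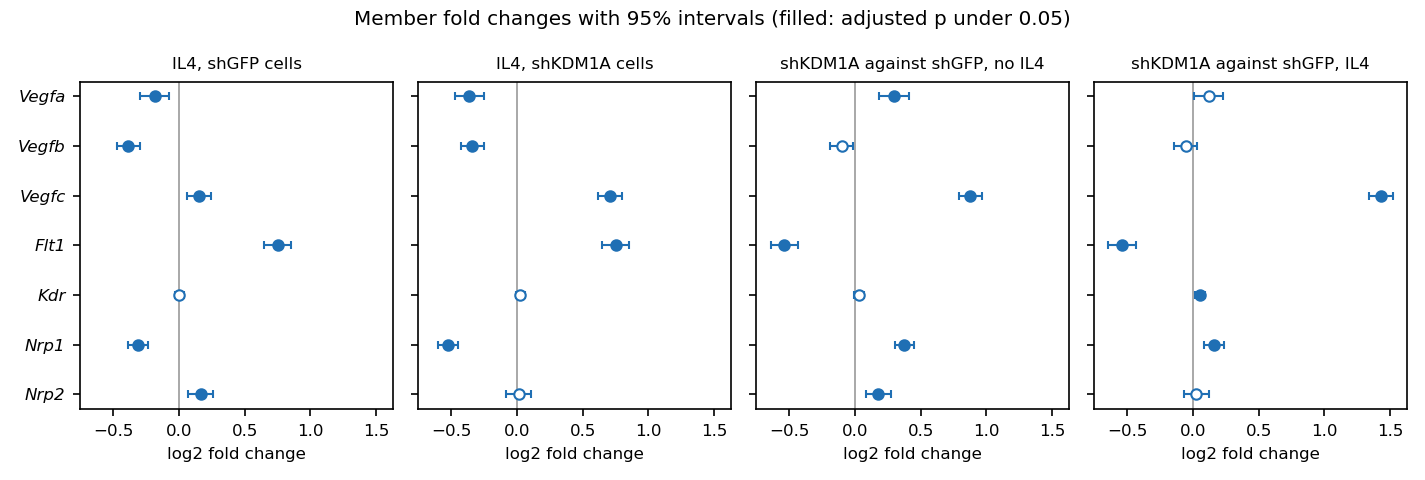
Log2 fold changes of the 7 tested genes in the IL4 and knockdown comparisons, with 95% intervals and filled points where the limma adjusted p is under 0.05. Flt1 is at 0.75 on IL4 in both lines and at -0.54 in both knockdown comparisons, and Vegfc reaches 1.43 in the knockdown with IL4.

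**Figure D5:**
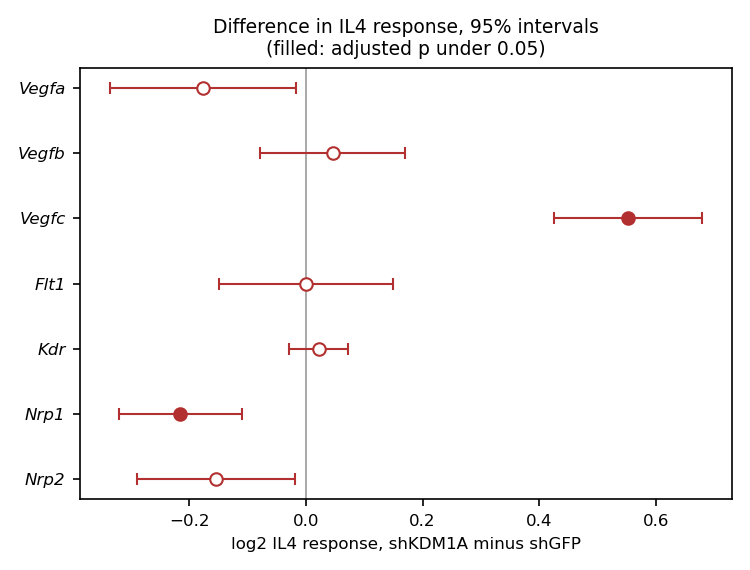
Difference in the log2 IL4 response, shKDM1A minus shGFP, for the 7 tested genes with 95% intervals, filled where the limma adjusted p is under 0.05. Vegfc at 0.55 and Nrp1 at -0.22 are filled, and Flt1 lies at 0.00.

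Genes that act beside the VEGF genes were taken from short lists and are given by counts, beside the median over all tested genes, which was 0.00 in each comparison, and the share of all tested genes called. Of the listed genes of VEGF receptor signalling 39 of 44 were tested. IL4 raised 7 and lowered 2 of them in shGFP cells (median 0.01) and raised 8 and lowered 3 in shKDM1A cells (median 0.02), shares near the 26.9% and 27.1% of all tested genes called in either direction. Nfatc1, a calcium-regulated transcription factor, rose by 0.64 and 0.46 in these comparisons, and Mapkapk2, the kinase downstream of p38, changed by -0.52 and -0.38. In shKDM1A against shGFP cells 11 were higher and 7 lower without IL4 (median 0.01) and 13 higher and 10 lower with IL4 (median 0.02), beside 38.2% and 40.7% of all tested genes in either direction. Map2k1, which encodes the ERK kinase MEK1, was higher by 0.63 and 0.67, and Prkca, a protein kinase C, by 0.47 and 0.32.

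Hypoxia is a known inducer of Vegfa, and 26 of 27 regulators and targets of the hypoxia response were tested. In the knockdown comparisons 16 were higher and 1 lower without IL4 (median 0.16), and 17 were higher and none lower with IL4 (median 0.18). Over all tested genes 19.7% were called higher and 18.4% lower without IL4, and 20.9% and 19.8% with IL4. At an unadjusted limma p under 0.05 the list had 18 with IL4, and no share of all genes was taken at that threshold. Bnip3, a mitophagy receptor, was higher by 0.87 and 1.01 and P4ha1, a collagen prolyl hydroxylase, by 0.33 and 0.45. On IL4 3 rose and 7 fell in shGFP cells (median -0.03), while 7 rose and 3 fell in shKDM1A cells (median 0.03), beside 13.1% higher and 13.7% lower over all genes in shGFP cells and 13.6% and 13.5% in shKDM1A cells. Hif1a, which encodes the oxygen-sensitive subunit of the factor, changed by -0.21 and -0.18 on IL4. Its differences on knockdown were -0.08 (limma adjusted p = 0.0680) and -0.04 (limma adjusted p = 0.318). The IL4 response was higher in shKDM1A cells for 5 of these genes and lower for none, beside 3.56% and 2.57% of all genes. Ndrg1 had a difference of 0.30 (limma adjusted p = 7.74e-04). At an unadjusted limma p under 0.05 there were 12 in either direction, again without a share of all genes at that threshold.

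Of 12 semaphorins and plexins that pair with neuropilins 5 were tested. Plxnd1, a plexin of endothelial and immune cells, was lower in shKDM1A cells by -0.85 without IL4 (limma adjusted p = 6.99e-13) and by -0.82 with IL4 (limma adjusted p = 1.08e-12). In all, 1 of the 5 was higher and 2 lower without IL4 (median 0.06), and 1 was higher and 3 lower with IL4 (median -0.23), beside 38.2% and 40.7% of all genes called in either direction. IL4 changed none of the 5 by limma in shGFP cells (median 0.01), where 0 had an unadjusted p under 0.05, and raised 1 and lowered 2 in shKDM1A cells (median 0.00), among them Plxna1 at -0.39, beside 26.9% and 27.1% of all genes. Of 11 genes known to respond to IL4, some of which the study picked from its own macrophage data, 8 were tested and 8 rose in shGFP cells and 7 in shKDM1A cells, beside 13.1% and 13.6% of all genes. The response was lower in shKDM1A cells for 4 of the 8 and higher for 1, beside 2.57% and 3.56% of all genes, with Mrc1 at a difference of -0.82 and Ptgs1 of -0.69, where Flt1 had 0.00.

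The nearest tested genes on either side were read for each tested VEGF gene. Pan3, 13.1 kb from Flt1, and Pomp, 135 kb on its other side, had IL4 changes of 0.08 and -0.10 in shGFP cells, beside 0.75 for Flt1. Neil3 and Spcs3, 438 and 334 kb from Vegfc, had knockdown differences of -0.13 and 0.15 with IL4, beside 1.43 for Vegfc. Dnajc4 lies 0.26 kb from the Vegfb row on the same strand, and it rose by 0.13 on IL4 in shGFP cells where Vegfb fell. Fkbp2, 2.01 kb on the other side, changed by -0.12. The neighbours of Vegfa, Mrpl14 and Mrps18a, changed by 0.06 and 0.14 on IL4 in shKDM1A cells, beside -0.36. Those of Nrp1, Rbm34 and Itgb1, had knockdown differences of 0.00 and 0.00 without IL4, beside 0.37. Icos and Ino80d beside Nrp2 had -0.09 and -0.16, and Chic2 and Srd5a3 beside Kdr had 0.09 and 0.17. Mir1903 is listed within the span of Nrp1 and 4930487H11Rik, on the opposite strand, within that of Nrp2, and counting on both strands does not separate reads where exons overlap.

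The genes whose pattern over the 16 libraries was most like that of Flt1, by Pearson r of the log2 values, were Inpp5d (0.99), Slc7a8 (0.99), Prkcd (0.99), Abcd2 (0.98) and Ifrd1 (0.98). Slc7a8, an amino acid transporter, had group means of 8.90, 10.18, 8.16 and 9.25 in the order shGFP, shGFP with IL4, shKDM1A and shKDM1A with IL4. For Vegfc, the gene with the widest span of group means, they were Anxa2 (0.99), Csk (0.99), Tmem246 (0.99), Ciao2a (0.98) and Rbfox1 (0.98). Tmem246 had means of 6.68, 6.91, 7.59 and 8.00 in the same order. The libraries fall into 4 groups, so these coefficients describe 4 levels more than 16 independent points.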

How the data were processed

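RNA-seq of RAW cells was analysed. The genes and lists were chosen with earlier results of these data known. Per the labels and file headers, the authors mapped reads to mm9 and counted exonic tags of RefSeq genes with HOMER (both strands, condensed to 1 row per gene), and the submitters' processing notes name HISAT2, Bowtie2, MACS2 and DESeq2. The deposited RAW values are log2 values per library (from -2.27 to 18.08, with 8488 genes at 0 in every library). The transformation is not given in the sources used here, and the values are not counts, so no count model was fitted and no pseudocount added. The authors' own comparison columns, which hold fold changes with raw and adjusted p-values and make up the whole BMDM table, were not used, nor were 171 samples of other assays.

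Genes reaching 1 in 4 or more libraries were tested with limma 3.58.1 in R 4.3.3, 4 group means and 5 contrasts, two-sided, Benjamini-Hochberg adjusted over 12905 genes, after a test on simulated data. All VEGF genes, the 3 largest called changes of a list, 5 most similar genes and nearest neighbours could be named. Alternatives were the filter, groups fitted, replicate block, centring, quantile normalization, trended variance, a fold limit and each library left out.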

Additional observations from a re-analysis of the deposited data

Results flagged for a closer look

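The IL4 response differed between shKDM1A and shGFP cells in 2 of the 7 tested genes, by the test of the difference itself. Over all tested genes 6.13% were called in this comparison. Vegfc responded more in shKDM1A cells, by 0.55 on the log2 scale (limma adjusted p = 5.43e-05), and Nrp1 was lowered more, with a difference of -0.22 (limma adjusted p = 0.0184). Each fit with a library left out and each alternative fit kept both differences past the threshold (only Vegfc exceeds a fold limit of 0.5), with Vegfc between 0.53 and 0.59 and Nrp1 between -0.24 and -0.19.

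In 6 of 36 groups of 4 values a single library stood apart from the other 3 by Dixon's criterion, which chance gives in about 1 group in 20. They were Vegfa in shKDM1A library 3 (8.09), Nrp1 in shGFP library 1 (9.03), Nrp2 in shKDM1A library 1 (13.48), Kdr in shGFP IL4 library 2 (1.47), and Pgf in shGFP library 3 (-0.67) and in shKDM1A library 2 (-0.67). The gaps of Kdr and Pgf are about 0.02 or less and belong to genes with almost no signal.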

How the results depend on the processing

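Leaving the fold limit aside, of 343 refits of a called change of a VEGF gene 338 kept the call and 5 lost it, and of 226 refits of a change that was not called, 7 gained a call. No called change turned its direction in these refits, and the filter at 5 left Kdr untested. A limit of 0.5 on the size of the log2 fold change reduced the calls much further. For IL4 in shGFP cells it left 174 genes and 1 VEGF gene, for IL4 in shKDM1A cells 141 and 3, for the knockdown without IL4 337 and 2, for the knockdown with IL4 319 and 2, and for the difference in response 17 and 1. Under quantile normalization the knockdown difference of Vegfb without IL4 was called (-0.12, limma adjusted p = 0.038), and with a trended variance so were those of Vegfb (adjusted p = 0.0496) and Kdr (adjusted p = 0.027). The replicate numbers gave no clear sign of pairing. Deviations of same-numbered libraries correlated above 0.1 in 3 of 24 pairs (median 0.04), and those of other-numbered libraries in 9 of 72 (median -0.01). With the replicate block 3430, 3459, 4882, 5212 and 732 genes were called in the 5 comparisons, and 6, 5, 5, 4 and 2 VEGF genes. Without length Pgf and Flt4 exchange the last places in the order of levels. The planned BMDM fit was not run because no values per library were used. Weakly detected genes cannot be resolved on the scale of the deposited values.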

Other observations

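Relatives of the VEGF genes were looked at beside them. Of 14 related growth factors and receptors 5 were tested, and IL4 raised 3 and lowered 1 in each line, beside 26.9% and 27.1% of all genes called in either direction. Pdgfa, a platelet-derived growth factor, rose on IL4 by 0.85 in shGFP cells (standard error 0.03, limma adjusted p = 8.53e-13) and by 0.89 in shKDM1A cells (limma adjusted p = 8.07e-13). Angpt2, a ligand of the endothelial receptor TEK, changed by -0.32 and -0.17. With the knockdown 2 were higher and 1 lower without IL4, and 3 were higher and none lower with IL4, beside 38.2% and 40.7% of all genes in either direction, with Pdgfb higher by 0.31 and 0.28. None of the 5 differed in the IL4 response by limma, beside 6.13% of all genes called. At an unadjusted limma p under 0.05 there was 1, and no share of all genes was taken at that threshold.

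Of 13 genes whose products bind or process VEGF outside the cell 6 were tested. IL4 raised 2 and lowered none in either line, beside 13.1% and 13.6% of all genes raised. Furin, the convertase that cleaves the VEGFC precursor, rose on IL4 by 0.33 in shGFP cells (limma adjusted p = 1.99e-07) and by 0.34 in shKDM1A cells (limma adjusted p = 1.73e-07), and Vash1, an inhibitor of vessel growth, by 0.29 and 0.18. With the knockdown 2 were higher and none lower without IL4, and 2 were higher and 1 lower with IL4, beside 38.2% and 40.7% of all genes in either direction. Pcsk7, another convertase, was higher by 0.32 and 0.29, Mmp9, a matrix metalloproteinase, by 0.09 and 0.07, and Vash1 was lower with IL4 by -0.12 (limma adjusted p = 0.0208).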
